A study of Rattus norvegicus with 12 samples.

Results

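Kinesins are motor proteins that bind microtubules and use ATP to move along them or to take them apart at their ends. Mitotic kinesins build the spindle, move chromosomes and complete cell division, and their mRNAs are known to be made mainly in dividing cells. Transport kinesins carry vesicles, organelles and mRNAs through the cell between divisions, and further members act in cilia and in signalling. The kinesin genes were taken as every row whose gene symbol begins with Kif followed by a digit or c, which gave 38 genes of the 20400 in the deposited tables. By the known role of each gene, 12 are mitotic, 17 are transport motors and 9 belong to a mixed class of cilium, signalling and other kinesins.

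RNA sequencing was made of 12 libraries of rat bone marrow mesenchymal stem cells (BMSCs), all labelled wild type (WT) and kept in chondrogenic induction medium, in 4 groups of 3 libraries. BMSC-C is the control. In BMSC-CT the cells were given CTGF, a matricellular growth factor, for 1 week, and TGF-β1, a driver of fibrosis, after it. BF-C is labelled as fibrotic BMSCs, which the series also calls induced fibrotic chondrocytes, with no further treatment, and BF-D is the same kind of cell treated with docetaxel, a taxane drug that binds and stabilizes microtubules. The labels give no dose or time for docetaxel, no TGF-β1 dose, no age or sex of the animals and no account of how the BF cells were induced. Nothing says that libraries of a group came from separate animals or cultures, so p-values measure the spread between these libraries, which may be technical. Each treated group was set against the control of its own table. The tables of both pairs were normalized separately, and levels set across them below are shares of reads, with no test.

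Library depth was 15580310 to 19870047 reads. In BMSC-CT replicate 3 only 14621 genes had any read, where the other 5 libraries of its table had 16100 to 17265. Its deviations from its group's mean fell with gene length (Spearman rho -0.40 across 16818 genes, a description of 1 library), and BF-D replicate 2 had the same feature (rho -0.36 across 17076 genes). The median kinesin gene was longer than the median gene, at 4268 against 2125 bases in the BF table. Kinesins were lower than their group mean by a median of 1.03 on the log2 scale in BMSC-CT replicate 3, which held the lowest of the 3 values for 21 of 37 kinesins. In BF-D replicate 2 the median deviation was -0.31, and the library held the lowest value for 25 of 38. Counts are therefore given with and without these libraries.

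The labelled cell type was checked against marker genes. The 17 macrophage markers summed to 8664 to 10383 reads-per-million units (RPM) across BMSC-C and 10316 to 13459 in BMSC-CT, with none at 0. They summed to 43.0 to 45.6 in BF-C, where Mrc1 was at 0 in all libraries, and to 58.3 to 65.1 in BF-D, and C1qa, C1qb, C1qc and Cd163 were not listed in the BF table. The 10 mesenchymal stem cell markers summed to 3654 to 4385 RPM in BMSC-C and 810 to 1858 after CTGF and TGF-β1, and to 6363 to 6391 RPM in BF-C and 5764 to 6228 after docetaxel. The 7 fibroblast markers summed to 18353 to 23223 RPM in BMSC-C and 9837 to 25412 in BMSC-CT, and to 97524 to 101242 RPM in BF-C and 71203 to 94315 in BF-D. Cartilage markers summed to 34.8 to 57.1 RPM in BMSC-C and 36.4 to 155 in BMSC-CT, and to 489 to 516 RPM in BF-C and 331 to 407 in BF-D. Of the defining cartilage genes, Col2a1 was not listed in the BMSC table and Acan was not listed in the BF table. Markers of neurons and glia, ciliated cells and endothelium each summed to at most 278 RPM in any library. In bulk RNA, fewer cells of a type and less RNA per cell cannot be told apart.

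Promoter sequences of 29 of the 38 kinesin genes were found in RefSeq (rat build GRCr8). They are shown for the members called in BMSC-CT against BMSC-C below, all lower in BMSC-CT except Kif1b. Kif11 and Kif23 are added as further mitotic members. Each is the 250 bases before the annotated gene start, 5′ to 3′ on the gene's strand. Capitals mark the letters TTTGAA or TTTAAA, which are forms of the cell cycle genes homology region (CHR) known from promoters of mitotic genes, and CCAAT, the letters bound by NF-Y, each searched on both strands.
Kif15, chr8:131479154-131479403, plus strand: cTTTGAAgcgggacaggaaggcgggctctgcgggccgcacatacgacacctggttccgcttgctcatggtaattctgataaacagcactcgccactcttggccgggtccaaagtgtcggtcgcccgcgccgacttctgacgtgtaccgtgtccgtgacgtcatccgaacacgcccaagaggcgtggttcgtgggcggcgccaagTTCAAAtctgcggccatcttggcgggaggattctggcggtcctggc
Kif11, chr1:244536617-244536866, plus strand: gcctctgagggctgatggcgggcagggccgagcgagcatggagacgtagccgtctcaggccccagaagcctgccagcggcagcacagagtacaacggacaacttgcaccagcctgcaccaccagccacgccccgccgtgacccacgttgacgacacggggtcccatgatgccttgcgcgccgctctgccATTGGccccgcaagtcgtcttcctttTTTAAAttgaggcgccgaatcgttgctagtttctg
Kif23, chr8:71320585-71320834, minus strand: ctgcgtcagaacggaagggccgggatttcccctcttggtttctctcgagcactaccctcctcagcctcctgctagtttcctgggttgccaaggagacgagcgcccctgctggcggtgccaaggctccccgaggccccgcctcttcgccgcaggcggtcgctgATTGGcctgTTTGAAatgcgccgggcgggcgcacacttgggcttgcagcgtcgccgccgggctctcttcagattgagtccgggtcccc
Kif26b, chr13:92815177-92815426, plus strand: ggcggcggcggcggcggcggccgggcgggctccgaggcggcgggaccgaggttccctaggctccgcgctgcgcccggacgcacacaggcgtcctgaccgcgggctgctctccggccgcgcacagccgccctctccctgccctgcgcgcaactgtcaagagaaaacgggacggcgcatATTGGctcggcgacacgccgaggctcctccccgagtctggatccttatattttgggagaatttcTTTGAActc
Kif5c, chr3:54441057-54441306, plus strand: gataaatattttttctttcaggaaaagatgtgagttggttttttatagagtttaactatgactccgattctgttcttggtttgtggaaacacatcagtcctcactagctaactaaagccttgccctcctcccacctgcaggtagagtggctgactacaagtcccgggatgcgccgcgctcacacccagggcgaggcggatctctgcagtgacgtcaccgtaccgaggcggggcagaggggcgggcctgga
Kif21a, chr7:124058541-124058790, minus strand: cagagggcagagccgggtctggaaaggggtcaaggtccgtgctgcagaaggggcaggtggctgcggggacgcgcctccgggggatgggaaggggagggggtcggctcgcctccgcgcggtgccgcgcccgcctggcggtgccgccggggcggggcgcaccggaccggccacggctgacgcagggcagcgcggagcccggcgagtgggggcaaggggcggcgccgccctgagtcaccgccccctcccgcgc
Kif1b, chr5:165025849-165026098, minus strand: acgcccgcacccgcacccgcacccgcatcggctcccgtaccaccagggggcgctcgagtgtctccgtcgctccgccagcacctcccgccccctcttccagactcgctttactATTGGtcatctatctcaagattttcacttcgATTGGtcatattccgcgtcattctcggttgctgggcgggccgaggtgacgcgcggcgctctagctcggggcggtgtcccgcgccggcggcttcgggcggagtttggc
Kif26a has no entry.

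One of the CHR letter forms was present in 8 of the 11 mitotic promoters (72.7%), in 0 of the 12 transport promoters and in 1 of the 6 others, which was Kif26b. Of all 33465 promoters of this length, 25.4% held one. In Kif11 the TTTAAA began 35 bases before the start and CCAAT 61 bases before it. In Kif23 TTTGAA began 79 bases before the start, next to CCAAT at 88. Kif15 had TTTGAA at 46 and 249 bases before its start and no CCAAT. The NF-Y letters were present in 7 of 11 mitotic promoters (63.6%) and 3 of 12 transport promoters (25%), against 34% of all; it and a CHR form can share end letters. The GC box letters GGGCGG, not capitalized above, were present in 10 of 12 transport promoters (83.3%), 6 of 11 mitotic ones (54.5%) and 30.5% of all. The Smad letters CAGACA were in 0 of 29 kinesin promoters and in 17.2% of all. These are matches of letters, not measured binding sites, and a missing match covers only these letters in this window.

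**Figure D1:**
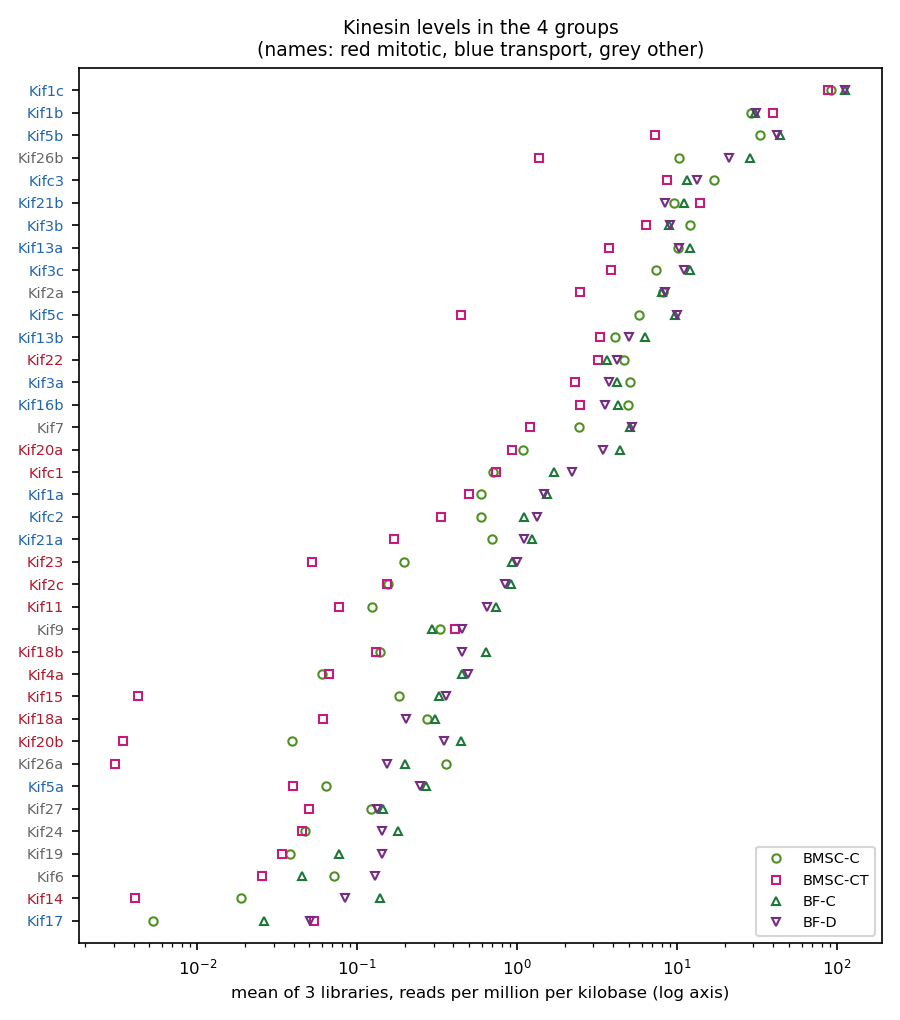
Mean level of each of the 38 kinesin genes in the 4 groups, in RPM per kilobase on a log axis, with 1 marker per group of 3 libraries and gene names coloured by role. Transport motors fill most of the top of the order, led by Kif1c, and the mitotic genes except Kif22 and Kif20a are at 2.20 or lower in every group.

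Transport motors held most kinesin reads in all 4 groups. Their summed level was 1332 ± 31 RPM in BMSC-C (SD, n = 3) and 1239 ± 387 in BMSC-CT, and 1517 ± 22 RPM in BF-C and 1494 ± 109 in BF-D. The 12 mitotic genes together had 20.3 ± 0.20 RPM in BMSC-C and 13.9 ± 1.5 in BMSC-CT, and 44.7 ± 1.5 RPM in BF-C and 42.6 ± 3.7 in BF-D. Thus every BF library held more mitotic kinesin reads than any BMSC library, across tables and with no test. The mixed class summed to 108 ± 6.3 RPM in BMSC-C and 21.9 ± 14 in BMSC-CT, and 254 ± 9.4 RPM in BF-C and 200.3 ± 55 in BF-D. Kif26b had the highest mean of this class in every group, with 76.6 RPM in BMSC-C and 10.2 in BMSC-CT, so it made up much of the sum. In BMSC-CT replicate 3 the transport sum was 792 RPM, against 1476 and 1450 in the other BMSC-CT libraries. These sums are shares of all reads, and their order depends on the scaling. Summed instead on the deposited normalized counts, a reading added after the data were seen, the transport class had 19411, 19645 and 19816 in BMSC-C. It had 23618, 25046 and 22059 in BMSC-CT, so every treated library was then above every control. By group means, Kif1b alone rose by more than this sum did. Of the 17 transport motors, 13 had a negative log2 difference and 4 a positive one. The mitotic class on the same scale had 298, 293 and 306 in BMSC-C and 250, 235 and 351 in BMSC-CT, where replicate 3 lay above the controls. The mixed class was lower in all 3 BMSC-CT libraries on both scales, with 1675, 1524 and 1567 normalized counts against 526, 466 and 166.

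**Figure D2:**
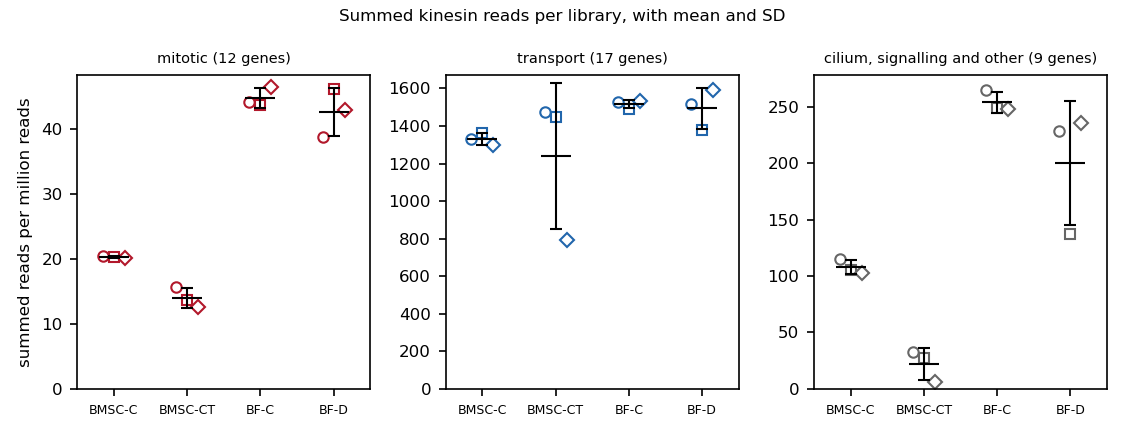
Summed RPM of the 12 mitotic, 17 transport and 9 cilium, signalling and other kinesins in each library (circle replicate 1, square 2, diamond 3), with the mean and SD of each group. As shares of all reads, the mitotic sum was lower in all 3 BMSC-CT libraries than in any BMSC-C library and the transport sum was low in BMSC-CT replicate 3 only; on the normalized counts, not plotted, neither held.

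Per kilobase of gene length, Kif1c, a fast motor for vesicles and integrins, was the highest kinesin in every group. Its level was 92.1 ± 6.7 RPM per kilobase in BMSC-C (SD, n = 3) and 88.2 ± 31 in BMSC-CT, and 112 ± 1.4 RPM per kilobase in BF-C and 113 ± 4.6 in BF-D. Next by the mean of all 12 libraries were Kif1b, which moves mitochondria and vesicles (32.6), and Kif5b, the widely expressed heavy chain of conventional kinesin (31.7). Kif1b was at 28.9 ± 1.5 RPM per kilobase in BMSC-C and Kif5b at 32.9 ± 10, so these neighbours did not differ beyond their spread there. In BMSC-CT they stood apart, with Kif1b at 39.8 ± 6.8 and Kif5b at 7.29 ± 6.2. Of the mixed class, Kif26b (15.4 over all libraries), Kif2a (6.77), a microtubule depolymerase, and Kif7 (3.50), a regulator of Hedgehog signalling in the primary cilium, were highest.

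Among the mitotic genes, Kif22, a motor on chromosome arms, led with 3.92 RPM per kilobase over all libraries, ahead of Kif20a (2.46), which brings the chromosomal passenger complex to the spindle midzone, and Kifc1 (1.34), which moves to microtubule minus ends. Kif22 was at 4.63 ± 0.81 in BMSC-C and 3.19 ± 0.23 in BMSC-CT, and at 3.63 ± 0.47 in BF-C and 4.24 ± 0.77 in BF-D. It was thus the 1 of these 3 that was not higher in both BF groups than in both BMSC groups. Kif20a was at 1.08 ± 0.28 and 0.926 ± 0.025 in BMSC-C and BMSC-CT, and at 4.42 ± 0.42 and 3.43 ± 0.38 in BF-C and BF-D. Kif11, which pushes the spindle poles apart, had 0.124 ± 0.032 and 0.0775 ± 0.061 in the BMSC groups and 0.742 ± 0.11 and 0.650 ± 0.099 in the BF groups. The neuronal motors Kif5a and Kif17 were low, with group means of at most 0.268 RPM per kilobase.

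CTGF followed by TGF-β1 went with lower mRNA of a few kinesins and with more Kif1b. In BMSC-CT against BMSC-C, 37 kinesins were tested and 1 was left out, Kif14, a midbody kinesin with a mean below 1 normalized count. By limma with Benjamini-Hochberg adjustment over all genes, 1 kinesin rose, Kif1b, and 5 fell, Kif26a, Kif5c, Kif15, Kif26b and Kif21a. In all tested genes 7.7% were called higher and 10.9% lower, 18.6% in either direction, against 2.7% and 13.5% of the kinesins. The share of kinesins called lower was thus near the background. The median log2 difference was -0.66 over the kinesins, beside -0.15 over all tested genes. With the trend with gene length removed it was -0.09, beside 0.03, and without BMSC-CT replicate 3 it was -0.38, beside -0.08.

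By role, 1 of 11 mitotic genes fell and 0 rose, 2 of 17 transport motors fell and 1 rose, and 2 of 9 others fell and 0 rose. Median log2 differences were -0.10 for mitotic, -0.66 for transport and -0.99 for the mixed class. With the length trend removed the transport median was -0.16 and that of the mixed class -0.46. The sign of the mitotic median was not stable across scalings, being 0.26 under quantile scaling and -0.67 under total-read scaling, while the median of all genes moved to 0.08 and -0.55. The groups did not overlap, with BMSC-CT the lower, in 13 of 37 kinesins (35.1%), and with BMSC-CT the higher in 1. This background was 28.9% and 23.3%. At an unadjusted p under 0.05 stood 10 of the 37 kinesins, 9 lower and 1 higher, where 38.6% of all genes did.

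**Figure D3:**
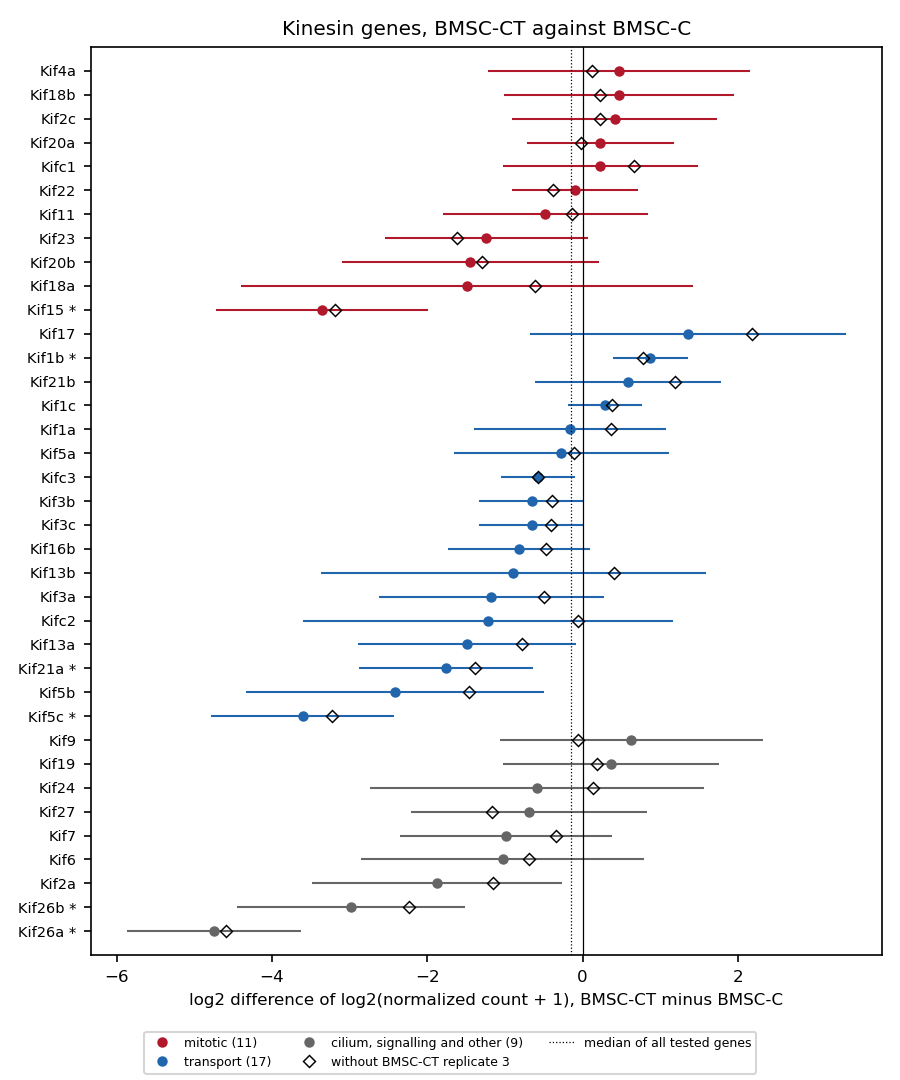
Difference on the log2(normalized count + 1) scale of each tested kinesin, BMSC-CT minus BMSC-C, as filled points with 95% intervals from limma, in order of role. Open diamonds leave out BMSC-CT replicate 3, the dotted line is the median of all tested genes, and asterisks mark the 6 called genes. Most intervals include 0, and those of the called genes and of Kif5b, Kif2a, Kif13a and Kifc3 do not.

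Kif5c, a conventional kinesin heavy chain best known from neurons, had 656, 576 and 444 normalized counts in BMSC-C and 91.3, 36.9 and 25.8 in BMSC-CT. All BMSC-CT libraries lay far below all BMSC-C libraries. Its log2 difference was -3.60 ± 0.49 (SE), with a limma adjusted p of 0.0057, and it was called under all 19 alternative settings. Kif5c is the closest relative of Kif5b, and how reads shared by such paralogs were counted is not given in the sources used here.

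Kif5b itself had 1950, 1791 and 1087 normalized counts in BMSC-C and 704, 452 and 77.3 in BMSC-CT. The groups did not overlap, and BMSC-CT replicate 3 was far below the other libraries. The log2 difference was -2.42 ± 0.80 and was not called (limma adjusted p = 0.078), with an adjusted p from 1.3e-05 to 0.23 over 19 alternatives, 6 of which called it. Without BMSC-CT replicate 3 the difference was -1.47 with a limma adjusted p of 0.0042.

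Kif26b, which in mice acts in kidney development and Wnt5a signalling, had 1188, 1075 and 1125 normalized counts in BMSC-C and 227, 251 and 49.9 in BMSC-CT. Every BMSC-CT library was below every BMSC-C library. The log2 difference was -2.98 ± 0.61 (limma adjusted p = 0.022). Without BMSC-CT replicate 3 it was -2.24, with an adjusted p of 1.3e-05. Leaving out any 1 of the BMSC-C libraries ended the call, at adjusted p up to 0.101.

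Its relative Kif26a, which in mice restrains signalling by the GDNF receptor Ret in gut neurons, had 31.7, 31.3 and 33.8 normalized counts in BMSC-C. In BMSC-CT it had 0.904 in replicate 1 and 0 in the other two. This was 115 reads in all against 1 read, a ratio of 86.2 with a 95% counting interval of 15.2 to 3436, which covers counting error only. The limma adjusted p was 0.0020, and it was called under all 19 alternatives.

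Kif15, a spindle motor that can share the work of Kif11, was the 1 mitotic kinesin called. It had 14.6, 16.9 and 6.93 normalized counts in BMSC-C and 0, 1.06 and 0 in BMSC-CT. This was 46 reads against 1 read, a ratio of 34.5 with a 95% counting interval of 5.89 to 1392. The limma adjusted p was 0.012, and the call ended without BMSC-C replicate 1 or 2, with an adjusted p of at most 0.071 over 18 alternatives.

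Kif21a, which restrains microtubule growth at the cell cortex, had 61.8, 49.9 and 42.5 normalized counts in BMSC-C and 19.9, 17.9 and 8.05 in BMSC-CT. The groups did not overlap. Its log2 difference of -1.76 ± 0.47 had a limma adjusted p of 0.045, and 9 of 19 alternatives did not call it (adjusted p up to 0.18), among them the removal of the trend with gene length, at -1.11.

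Kif1b was the 1 kinesin that rose. It had 6306, 6323 and 7234 normalized counts in BMSC-C and 10583, 12046 and 13920 in BMSC-CT. Every BMSC-CT library was above every BMSC-C library, and on this scale BMSC-CT replicate 3, low for most kinesins, was the highest. As a share of reads that library was instead the lowest of BMSC-CT, at 500 RPM against 661 and 697. BMSC-C had 433, 438 and 475 RPM. Kif1b is also the longest of the kinesins, with a deposited length of 15549 bases. The log2 difference was 0.87 ± 0.20 (limma adjusted p = 0.031). It was 0.45 under total-read scaling, 0.40 under quantile scaling and 1.98 with the trend with gene length removed, and none of these called it; 11 of 19 alternatives did (adjusted p up to 0.18).

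**Figure D4:**
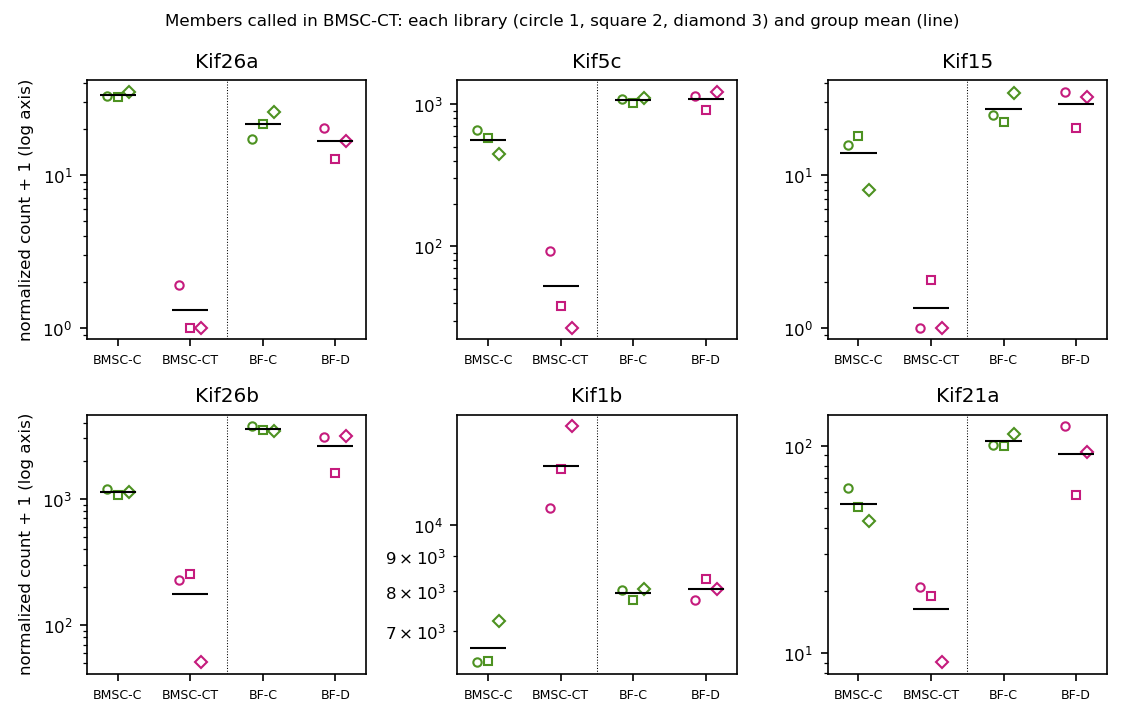
Normalized count plus 1 on a log axis, in each library, of the 6 kinesins called in BMSC-CT, with group means of the 3 libraries as lines. The dotted line parts the 2 tables, which were normalized separately. In the left table BMSC-C and BMSC-CT do not overlap for any of the 6 genes, and BF-C and BF-D lie close together for Kif5c and Kif1b.

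The other mitotic kinesins were low in the BMSC table, where 7 of the 12 had a BMSC-C mean below 10 normalized counts. Kif11 had 9.76, 5.92 and 10.4 normalized counts in BMSC-C and 10.9, 5.28 and 3.22 in BMSC-CT. The groups overlapped, and the log2 difference of -0.48 (95% interval -1.79 to 0.84) was not called (limma adjusted p = 0.53). Kif23, the motor of the centralspindlin complex of cytokinesis, had 13.0, 6.77 and 9.53 against 1.81, 3.17 and 6.44. The groups did not overlap, by a narrow gap, and the difference of -1.24 ± 0.55 was not called (limma adjusted p = 0.14, from 0.0031 to 0.37 over 18 alternatives). It was called without BMSC-CT replicate 3, at -1.61 with adjusted p = 0.034. Kif18a, which steadies chromosomes at the spindle equator, had 21.1, 19.5 and 0.867 in BMSC-C and 6.33, 4.22 and 0 in BMSC-CT, and BMSC-C replicate 3 overlapped BMSC-CT. Kif22 had 146, 139 and 199 against 126, 119 and 217 normalized counts, and Kif20a 54.5, 50.8 and 33.8 against 44.3, 45.4 and 75.7, both with overlap.

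Of the kinesin-2 motors, which drive transport into cilia, Kif3a had 336, 295 and 232 normalized counts in BMSC-C and 256, 158 and 48.3 in BMSC-CT. The BMSC-CT replicate 1 value lay inside the control range, and the log2 difference of -1.18 ± 0.61 was not called (limma adjusted p = 0.19). Its partners Kif3b (1095 ± 94 against 718 ± 223, SD, n = 3) and Kif3c (372 ± 28 against 242 ± 65) did not overlap between groups and were not called either (adjusted p = 0.14 for each). Among vesicle motors, Kif13a had 1045, 1040 and 931 in BMSC-C against 655, 519 and 134 in BMSC-CT, and Kifc3, a motor to microtubule minus ends, 740, 891 and 861 against 495, 622 and 554. Both were lower in all 3 BMSC-CT libraries and missed the threshold (limma adjusted p = 0.11 and 0.086). Kif1c had 5023, 5647 and 5977 against 6760, 7686 and 5933 normalized counts, with overlap through BMSC-CT replicate 3. Kif2a had 302, 244 and 218 against 166, 77.0 and 24.2, without overlap, and was not called (limma adjusted p = 0.093).

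Without BMSC-CT replicate 3, 3 kinesins were called higher and 10 lower of 38 tested, which was 7.89% and 26.3%. The background also rose, to 19.5% higher and 23.5% lower, 43% of 16742 genes in either direction. The 6 genes called with all libraries kept their calls, and Kif17 and Kif21b joined the higher group. For Kif17 this rests on few reads, 10 over the BMSC-CT libraries, with 0 in replicate 3, against 1 over the BMSC-C libraries. Kif5b, Kif13a, Kif23, Kif2a and Kifc3 joined the lower group. Kif21b, a relative of Kif21a, had 753, 744 and 840 normalized counts in BMSC-C and 1842, 1712 and 509 in BMSC-CT, so that replicate 3 lay below all controls and the other two above them. By DESeq2 on the recovered reads 1 kinesin was called higher and 7 lower, with a background of 16.4% in each direction. The authors' deposited table, made from the same libraries and so no separate check, has 1 kinesin higher and 7 lower at adjusted p under 0.05. Among these are Kif5b at 0.027 and Kifc3 at 0.037. They are the same kinesins that DESeq2 called on the recovered reads, so the authors' count adds nothing to that one. The share of all genes called by the authors was not counted. The summed mesenchymal stem cell markers were lower in all 3 BMSC-CT libraries than in any BMSC-C library, in RPM and in normalized counts. The ranges of the summed macrophage markers just overlapped in RPM. In normalized counts, a reading added after the data were seen, they were apart, at 190550 to 287171 in BMSC-CT against 124943 to 158180 in BMSC-C. The sum did not speak for each marker. Of these 17 markers, 7 had a positive log2 difference and 10 a negative one, with a median of -0.79, beside -0.15 for all genes. Their part in these differences was not tested.

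The genes that work with kinesins were read from lists of known partners, and their counts stand beside a background of 7.7% called higher and 10.9% called lower. Of 21 cargo adaptors and spindle partners tested, 1 rose and 0 fell in BMSC-CT. The riser was Arl8a, a small GTPase that links lysosomes to kinesins, with 1774 ± 260 normalized counts in BMSC-C (SD, n = 3) and 4084 ± 320 in BMSC-CT (log2 difference 1.21 ± 0.19 SE, limma adjusted p = 0.010). Of 20 spindle checkpoint and midzone genes 1 rose and 0 fell: Incenp, the scaffold of the chromosomal passenger complex, went from 122 ± 25 to 438 ± 128 (adjusted p = 0.015). Of 24 dynein and dynactin genes, the machinery of movement to minus ends, 0 rose and 1 fell, which was the dynein intermediate chain Dync1i2 with 2395 ± 366 against 942 ± 273 (adjusted p = 0.021). Of 15 DNA replication genes 0 rose and 1 fell, Rrm1, a ribonucleotide reductase subunit, with 658 ± 84 against 344 ± 30 (adjusted p = 0.028). In these 4 lists 0 genes were called in either direction without BMSC-C replicate 1, and likewise without BMSC-C replicate 2.

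Of 18 genes of intraflagellar transport, the traffic that kinesin-2 drives along cilia, 1 rose (5.56%) and 5 fell (27.8%) in BMSC-CT, again beside 7.7% and 10.9% of all genes. All 6 calls ended when any 1 of the BMSC-C libraries, or BMSC-CT replicate 2, was left out. Ift80 had 387 ± 73 normalized counts in BMSC-C (SD, n = 3) and 107 ± 52 in BMSC-CT (limma adjusted p = 0.022), and Ift81 had 295 ± 74 and 103 ± 31 (adjusted p = 0.026). Ift27, a small GTPase of the same particles, went the other way, from 220, 305 and 321 to 872, 1091 and 4155 (adjusted p = 0.033), with BMSC-CT replicate 3 far above the other two. The list's median log2 difference was -0.54, beside -0.15 for all genes. With an untrended robust variance 0 genes rose and 2 fell, and the share of all genes was not counted there. With BMSC-CT replicate 3 left out, 3 genes rose and 8 fell. The background also rose there, to 19.5% of all genes called higher and 23.5% lower. Beside these same shares, the removal of BMSC-CT replicate 3 gave 3 higher and 3 lower of 21 partners and 2 and 4 of 20 checkpoint genes. It gave 3 and 5 of 24 dynein genes, and 1 and 4 of 15 replication genes.

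Docetaxel went with no called change of any kinesin in BF cells. All 38 were tested in BF-D against BF-C, and 0 were called in either direction by limma or edgeR. DESeq2 called 0 of the 35 for which it gave an adjusted p, and gave none for Kif6, Kif17 and Kif19. The background was low too: limma and edgeR each called 0.0117% of 17076 genes, which is 2 genes, and DESeq2 called 0.497%. At an unadjusted p under 0.05, 1 kinesin was higher, Kif6, and 1 was lower, Kif20a, where 6.2% of all genes passed. Kif6, a kinesin of motile cilia, had at most 5.82 normalized counts in any library. The median log2 difference was -0.16 for the 12 mitotic and -0.17 for the 17 transport kinesins, beside -0.004 for all genes. Without BF-D replicate 2 the transport median was 0.04 and the mitotic one -0.17, and again 0 kinesins were called, with a background of 1.54%.

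**Figure D5:**
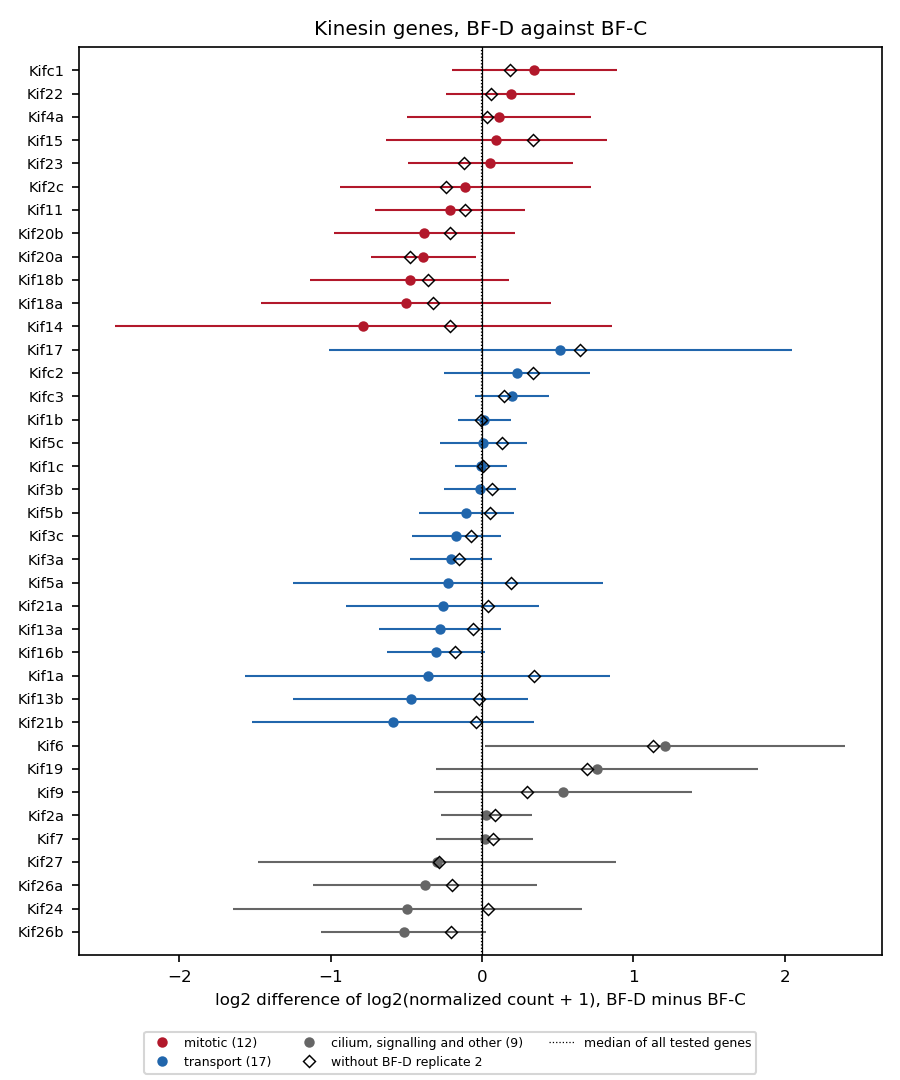
Difference on the log2(normalized count + 1) scale of each kinesin, BF-D minus BF-C, as filled points with 95% intervals from limma, in order of role, with open diamonds for the values without BF-D replicate 2 and a dotted line at the median of all tested genes. No gene is called, and the intervals include 0 except those of Kif20a and Kif6.

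Kif20a had the smallest p of the mitotic genes. Its normalized counts were 226, 232 and 192 in BF-C and 161, 186 and 150 in BF-D. All BF-D libraries were below all BF-C libraries, by a small gap. The log2 difference of -0.39 (95% interval -0.73 to -0.04) was not called (limma adjusted p = 0.71, from 0.11 to 0.92 over 19 alternatives).

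Kif18b, a depolymerase of astral microtubules, had 49.1, 32.0 and 29.5 against 26.6, 21.3 and 29.3 normalized counts, with a narrow gap between groups. Kif20b, which acts in cytokinesis, had 33.9, 41.6 and 47.2 against 34.1, 24.2 and 35.6, with overlap. Kifc1 had 66.9, 52.3 and 75.7 in BF-C and 80.9, 103 and 66.0 in BF-D, also with overlap. None was called. The log2 differences had 95% intervals of -1.14 to 0.18 for Kif18b, -0.98 to 0.22 for Kif20b and -0.20 to 0.89 for Kifc1.

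The spindle motors that the BMSC table measured poorly had more reads here. Kif11 had 57.6, 51.3 and 67.8 normalized counts in BF-C and 50.0, 43.6 and 58.6 in BF-D. The groups overlapped, with a log2 difference of -0.21 and a 95% interval of -0.71 to 0.29. Kif23 had 52.5, 51.3 and 53.1 against 41.5, 69.8 and 55.5. Its BF-D libraries lay on both sides of the controls, and the interval of the difference was -0.49 to 0.60. Kif15, called in BMSC-CT, had 23.7, 21.4 and 33.4 in BF-C and 34.1, 19.4 and 31.4 in BF-D. These values overlapped.

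Of the transport motors with the smallest p, Kif16b, which moves early endosomes, had 432, 428 and 402 normalized counts in BF-C and 357, 284 and 389 in BF-D. Kif3a had 272, 278 and 276 against 253, 222 and 243, and Kif13a 1341, 1386 and 1358 against 1304, 833 and 1305. Kifc3 went the other way with 668, 583 and 666 against 729, 786 and 685. The groups of these 4 genes did not overlap, and none was called (limma adjusted p = 0.71 for each). The 95% intervals of the log2 difference were -0.63 to 0.02 for Kif16b, -0.47 to 0.07 for Kif3a, -0.68 to 0.12 for Kif13a and -0.05 to 0.45 for Kifc3. Without BF-D replicate 2 the Kif13a difference shrank from -0.28 to -0.06.

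Over all 38 kinesins, groups did not overlap in 6 with BF-D lower (15.8%, background 9.04%) and 2 with BF-D higher (5.26%, background 7.78%). The most abundant motors were close between groups. Kif1b had 8045, 7780 and 8061 normalized counts against 7766, 8328 and 8056, and Kif1c 7568, 7662 and 7684 against 7463, 7453 and 7928. The 95% interval was -0.16 to 0.19 for Kif1b and -0.18 to 0.17 for Kif1c on the log2 scale, with overlapping groups.

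Kif5b had 2566, 2411 and 2442 normalized counts in BF-C and 2600, 1853 and 2536 in BF-D. Replicate 2 alone was low, and the interval of -0.42 to 0.21 included 0. Kif5c had 1088, 1025 and 1109 against 1134, 911 and 1221. Kif26b had 3746, 3490 and 3455 in BF-C and 3061, 1613 and 3119 in BF-D, lower in all 3 libraries and lowest in replicate 2. It was not called, with a limma adjusted p of 0.71, and 0.055 without BF-D replicate 2.

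In the lists of 20 adaptors and spindle partners, 20 checkpoint and midzone genes, 24 dynein and dynactin genes, 15 replication genes and 18 intraflagellar transport genes, 0 were called in BF-D by limma. One dynein gene, Dync1i1, was called lower by DESeq2, with library weights and without BF-D replicate 2 (adjusted p = 0.021, 0.013 and 0.015). This dynein intermediate chain had the smallest p of these, with 265, 249 and 260 normalized counts in BF-C and 137, 156 and 179 in BF-D. The groups were well apart, and its limma adjusted p was 0.41. Kntc1, a checkpoint protein, had 89.7 ± 3.4 against 55.6 ± 21 (SD, n = 3), and Cit, the midbody kinase citron, 428 ± 22 against 262 ± 115. Both had an adjusted p of 0.71.

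Gene by gene across the 6 libraries of each table, the values most like those of Kif5b in the BMSC table were those of Tnpo3, Shoc2, Rab23, Hnrnpr and Kdm7a, each with Pearson r of 0.999 on the log2 scale among 13025 genes. In the BF table Cpt1a, Fyco1, Ednrb, Daam2 and Erbb2 were most like Kif5b (r from 0.997 to 0.998 among 13046 genes), and Cenpu, Cyp2u1, Parva, Hspa12b and Ints7 most like Kif11 (r from 0.968 to 0.982). These describe 6 libraries, which share the group difference and the gene length feature of the libraries that stand apart. Kif11 was too low in the BMSC table, with a mean below 10, for the same reading.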

How the data were processed

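RNA was measured in 12 libraries; per the labels' protocols a NEBNext Ultra kit was used to prepare them. No strand-aware counting is stated, so reads of overlapping antisense genes cannot be told apart. The submitters' processing notes name the aligner Bowtie 0.12.2 and the build mm8. The IDs in the tables are those of rat genes in Ensembl while mm8 is from mouse, and the rat build and the counting method are not given in the sources used here. The authors deposited 1 gene table per comparison. Per the file headers it holds 1 signal value for each gene in each library. These are normalized counts, and 100% of the values were whole multiples of 1 read's worth (tolerance 0.01), so reads could be recovered. The same tables carry the authors' deposited log2 fold changes and p-values. Depth was 15580310 to 19870047 reads per library, and 0 value columns were left without a sample.

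The main test was limma 3.58.1 with a variance trend (R 4.3.3) on log2(normalized count + 1), for genes whose mean was at least 1, fitted on each whole table, with Benjamini-Hochberg adjustment, and called at an adjusted p under 0.05. Fold changes on this scale understate changes of low genes. edgeR 4.0.16 and DESeq2 1.42.0 on the recovered reads, other scalings, pseudocounts (0.5, 5), filters (none, mean of at least 10), library weights, removal of the trend with gene length (lowess, span 0.3), a replicate block and leaving out each library were alternatives. The smallest p of an exact permutation test of 3 against 3 libraries is 0.1. RPM is recovered reads-per-million, divided by deposited gene length for comparisons between genes. Counting intervals are exact, at 95%. The fit was also run on simulated counts with a length trend in at most 1 library, and no result here rests on that run.

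The kinesins, partner lists and markers were chosen with earlier results of these data known. Named genes were the called kinesins, the 3 highest per role, up to 4 of smallest p per role and comparison, Kif11, Kif23, Kif5b and Kif3a, and up to 3 of smallest p in each partner list; Kif6, Kif17, Kif21b, Kif3b, Kif3c, Kif5a and Kif14 were named after their values were seen. Kif1c, Kif11, Kif13a and Kif18b have a pseudogene in RefSeq, and how shared reads were counted is not given, so their values are uncertain in that respect. Samples with the same replicate number did not all deviate together (correlations -0.02 to 0.20 in the BMSC table and -0.003 to 0.02 in the BF table), so no pairing was used in the main test. In the BMSC table numbers 1 and 3 did so weakly, at 0.20 and 0.18, where libraries of unlike number gave -0.23 to 0.09. What they share was not tested.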

Additional observations from a re-analysis of the deposited data

How the results depend on the processing

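In BMSC-CT against BMSC-C, where 1 kinesin was called higher, the count was 0 under total-read scaling, quantile scaling and an untrended robust variance, 6 with library weights, and 0 to 3 when 1 library was left out. Where 5 were called lower, it was 18 with library weights and 2 to 10 when 1 library was left out. The fit of library weights stopped before it converged and called 73.5% of all genes. It called 33.7% of all genes higher and 39.8% lower, against 16.2% and 48.6% of the kinesins. Without BMSC-CT replicate 3, which gave the 3 higher and 10 lower, 19.5% of all genes were called higher and 23.5% lower. Leaving out any BMSC-C library, or BMSC-CT replicate 2, gave 0 higher; without BMSC-C replicates 1, 2 and 3 in turn 2, 2 and 3 were lower. BF-D against BF-C gave 0 and 0 under every alternative run. In BMSC-CT the alternatives were read for 12 kinesins, the called ones and Kif5b, Kif3a, Kif11, Kif18a, Kif20b and Kif23. Of their 222 values, 188 kept their direction and side of the threshold, 22 lost the call, 10 gained it and 2 changed sign. The lost calls were those of Kif1b, Kif21a, Kif26b and Kif15. For 11 kinesins in BF-D, all uncalled, 205 of 209 kept both and 4 changed sign. The uncalled Kif11 difference in BMSC-CT became 0.055 under quantile scaling and 0.14 with the length trend removed. In BF-D the uncalled Kif23 difference became -0.17 with library weights and -0.12 without BF-D replicate 2, and that of Kif5b 0.042 and 0.055. With 1 library left out, the BF-D differences ran from -0.12 to 0.25 for Kif23 and from -0.19 to 0.055 for Kif5b. The cause was not tested.

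The labels number replicates alike, but same-numbered libraries did not all deviate together. A fit with the replicate block called 1 kinesin higher and 5 lower in BMSC-CT, where Kif5b gained the call (adjusted p = 0.038) and Kif21a lost it (0.057), and 0 and 0 in BF-D. Depth limits the lowest members: Kif26a, Kif15 and Kif20b each had 1 read over the BMSC-CT libraries. Kif17 had 10 reads over the BMSC-CT libraries and 1 over the BMSC-C libraries.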
